A study of Homo sapiens with 60 samples.

Results

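PGD, TALDO1, TKT, ME1 and IDH1 are 5 of the 60675 genes in the deposited table, and they were taken by name, matched from Ensembl identifier to symbol. They encode enzymes of the pentose phosphate pathway and of the cytosolic reactions that make NADPH. RNA of HepG2, an established human liver cancer line, was sequenced in 60 libraries after 24 h of treatment, as 20 groups of 3 libraries. One group had vehicle, which the sample labels give as 0.1% DMSO and the series description as 2%. Another had 10 µM wortmannin, which blocks phosphoinositide 3-kinase. The other 18 groups had 1 of 6 water extracts used in herbal medicine at 20, 100 or 500 µg/mL: Poria from Poria Cocos, licorice from Glycyrrhizae Radix, Atractylodes from Atractylodis Rhizoma, peony from Paeoniae Radix, angelica from Angelicae Gigantis Radix and ginseng from Panax Ginseng. Nothing in the labels shows whether the libraries within a group are separate cultures, so the p-values measure only the spread between these libraries, which may be technical. All groups are the same cell line, and a change in RNA per cell cannot be told apart from a change in the makeup of the culture.

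The pentose phosphate pathway branches from glycolysis at glucose 6-phosphate. Its oxidative arm makes NADPH in a pair of dehydrogenase steps, of which PGD catalyses the later one, and releases ribulose 5-phosphate. Its non-oxidative arm, run by the transketolase TKT and the transaldolase TALDO1, exchanges sugar phosphates with glycolysis and supplies ribose for nucleotides. Malic enzyme (ME1) and the NADP-dependent isocitrate dehydrogenase (IDH1) make NADPH in the cytosol from malate and isocitrate. In liver cells this NADPH is spent on fatty acid and sterol synthesis and on reducing glutathione, thioredoxin and quinones. Several of these enzymes are textbook targets of the transcription factor NRF2 (NFE2L2), which binds antioxidant response elements with small MAF proteins.

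Because TKT, TALDO1 and PGD moved together in the data, their promoters are shown beside those of IDH1 and ME1, so that the letters can be read against the levels. Each is the 250 bases before a RefSeq transcription start on GRCh38.p14, in lower case, with matches to TGACNNNGC, the core of the antioxidant response element, on either strand in capitals. GENCODE v29 has further transcript starts within or before some of these windows. IDH1 has more than 1 start in the table, and the window that holds a match is shown.
TKT promoter, chr3:53256023-53256272, minus strand: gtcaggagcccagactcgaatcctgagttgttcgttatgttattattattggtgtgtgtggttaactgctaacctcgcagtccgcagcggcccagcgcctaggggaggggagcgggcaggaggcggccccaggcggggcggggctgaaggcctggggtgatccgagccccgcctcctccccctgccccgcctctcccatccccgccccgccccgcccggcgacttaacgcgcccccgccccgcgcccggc
TALDO1 promoter, chr11:747214-747463, plus strand: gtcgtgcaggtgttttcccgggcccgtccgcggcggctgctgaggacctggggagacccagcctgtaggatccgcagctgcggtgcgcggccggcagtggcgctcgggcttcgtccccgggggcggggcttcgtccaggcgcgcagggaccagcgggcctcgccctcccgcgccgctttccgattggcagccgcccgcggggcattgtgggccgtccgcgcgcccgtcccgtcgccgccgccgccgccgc
PGD promoter, chr1:10398814-10399063, plus strand: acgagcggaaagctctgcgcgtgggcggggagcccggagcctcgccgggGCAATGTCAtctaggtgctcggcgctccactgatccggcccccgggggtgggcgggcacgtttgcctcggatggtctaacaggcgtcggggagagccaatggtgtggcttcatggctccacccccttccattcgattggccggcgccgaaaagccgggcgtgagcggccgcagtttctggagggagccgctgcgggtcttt
IDH1 promoter, chr2:208255072-208255321, minus strand: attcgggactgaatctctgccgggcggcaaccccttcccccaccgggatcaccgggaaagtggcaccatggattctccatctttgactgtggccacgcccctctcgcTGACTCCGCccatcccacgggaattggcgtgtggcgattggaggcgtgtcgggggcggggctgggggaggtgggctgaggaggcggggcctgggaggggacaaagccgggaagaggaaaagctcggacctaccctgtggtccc
ME1 promoter, chr6:83431052-83431301, minus strand: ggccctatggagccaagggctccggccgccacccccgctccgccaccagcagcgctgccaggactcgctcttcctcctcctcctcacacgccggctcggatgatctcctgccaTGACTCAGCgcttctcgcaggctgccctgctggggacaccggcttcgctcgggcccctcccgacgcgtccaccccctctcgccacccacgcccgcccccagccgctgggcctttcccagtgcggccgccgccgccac
The core was present 1 time each in the windows of PGD, ME1 and this start of IDH1, and in neither TKT nor TALDO1. The window of the other IDH1 start, not shown, held 0 matches. The core occurs in 10.9% of the 35116 windows of the same length. A match is a description of letters, not a binding site, and the absence of one says nothing about binding elsewhere.

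On GRCh38, in GENCODE v29, PGD lies at chr1:10398592-10420144, TALDO1 at chr11:747329-765024, TKT at chr3:53224707-53256052, ME1 at chr6:83210389-83431071 and IDH1 at chr2:208236227-208266074. Levels below are CPM, a gene's counts relative to the library total scaled by TMM factors, so they compare a gene between groups and not genes with each other. Library totals ran from 20.9 M to 33.4 M counts. Counts per library were 5741 to 10250 for PGD, 2283 to 4613 for TALDO1, 7740 to 13500 for TKT and 12779 to 29864 for IDH1. An antisense gene, IDH1-AS1, overlaps IDH1 with at most 23 counts in a library, and the pseudogene PGDP1 had at most 2.

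The markers of hepatocytes were all expressed, with 8 of 8 tested. In the fibroblast and stellate list, COL1A2, COL3A1, LUM and DCN never exceeded 3 counts in any library, while ACTA2 ran from 34.8 to 76.3 CPM and PDGFRB from 2.30 to 14.4 CPM. The sum of that list, which ACTA2 dominates, was 72.1 to 74.6 CPM with vehicle and 62.8 to 68.6 CPM with wortmannin. At 500 µg/mL it was 48.0 to 51.7 CPM with Poria and 53.5 to 57.5 CPM with licorice. Of its 3 tested genes, 1 rose and 1 fell in the Poria trend (median -0.64), where 43.5% of all genes passed. In the licorice trend 0 rose and 2 fell (median -0.79), where 21.3% of all genes passed. In the blood list PTPRC, HBB and CD3E never exceeded 3 counts either. In the dose trends, 3 hepatocyte markers rose and 2 fell with Poria, and 1 rose and 7 fell with licorice. Their sum was 58556 to 60603 CPM with vehicle, 65508 to 67813 CPM with wortmannin, 62582 to 64000 CPM with Poria at 500 µg/mL and 47971 to 49383 CPM with licorice at 500 µg/mL. The summed blood list, which LYZ dominates, was 1329 to 1478 CPM with vehicle, 2105 to 2447 CPM with wortmannin and 2255 to 2776 CPM with Poria at 500 µg/mL, and the part of any of these sums in the results below was not tested. Mitochondrially encoded genes held 6.17% to 11.1% of counts, the highest in 1 library of Poria at 100 µg/mL. The labels name 1 batch, but the numbers in the sample descriptions put vehicle, wortmannin, Poria with Atractylodes, licorice with ginseng, and angelica with peony under separate leading codes whose meaning is not given. Comparisons with vehicle therefore cannot be told apart from a difference between these codes or in DMSO, whereas dose trends and the pairs just named each stay within 1 code.

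ME1 was barely detected. It had 0 counts in 52 of 60 libraries and 1 or 2 in the other 8, a sum of 9 among 1589 M counts, where 3 counts in a library correspond to 0.0899 to 0.144 CPM. It failed the filter on low counts and was not tested, as did its mitochondrial relative ME3, with at most 3 counts. ME2, the mitochondrial NAD-dependent malic enzyme, was expressed. Vehicle libraries had ME2 levels of 32.5, 31.2 and 30.6 CPM, and Poria at 500 µg/mL gave 41.3, 43.6 and 41.3 CPM. The other 4 genes passed the filter and entered every test.

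TKT and TALDO1 rose with the dose of Poria and of licorice, PGD rose by less, and IDH1 fell with Poria. The dose trend used here is the log2 difference between 500 and 20 µg/mL of an extract, tested with edgeR's quasi-likelihood test with Benjamini-Hochberg adjustment over all 16093 genes at 0.05. With Poria 4 of 4 genes passed, 3 up and 1 down, where 43.5% of all genes did, 22.2% up and 21.3% down. With licorice 3 of 4 passed, all up, where 21.3% of all genes did, 11.1% up and 10.2% down. The median change of the 4 was 0.26 with Poria and 0.31 with licorice, beside medians over all genes tested of -0.011 and 0.0014.

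TKT, the transketolase, was at 345, 358 and 326 CPM in the vehicle libraries. With Poria it was at 337, 342 and 341 CPM at 20 µg/mL, at 397, 421 and 405 CPM at 100 µg/mL and at 475, 474 and 478 CPM at 500 µg/mL. The 3 doses did not overlap. The Poria trend of TKT was 0.48 ± 0.036 (log2, SE; edgeR adjusted p = 5.16e-16), and both steps passed, with 0.26 from 20 to 100 µg/mL and 0.22 from 100 to 500 µg/mL. With licorice TKT was at 342, 322 and 347 CPM at 20 µg/mL, at 383, 393.5 and 393 CPM at 100 µg/mL and at 470, 488 and 463 CPM at 500 µg/mL. Again the doses did not overlap, and the licorice trend was 0.49 ± 0.036 (edgeR adjusted p = 1.72e-15), with steps of 0.21 and 0.28 that both passed. The lower licorice step lost its call when only the groups compared were fitted (adjusted p = 0.0815).

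TALDO1, the transaldolase, stood at 111, 114 and 99.1 CPM with vehicle. With Poria it was at 107, 110.2 and 117 CPM at 20 µg/mL, at 128, 135 and 129 CPM at 100 µg/mL and at 146, 151 and 151 CPM at 500 µg/mL, with no overlap between doses. The Poria trend was 0.42 ± 0.050 (1.34-fold; edgeR adjusted p = 9.05e-10), in steps of 0.22 and 0.19 that both passed. With licorice TALDO1 was at 112, 114 and 124 CPM at 20 µg/mL, at 121, 129.9 and 126 CPM at 100 µg/mL and at 160.5, 157 and 159 CPM at 500 µg/mL. The lower 2 doses overlapped and the highest stood apart. The licorice trend was 0.44 ± 0.050 (1.36-fold; edgeR adjusted p = 6.24e-10), with 0.34 of it between 100 and 500 µg/mL, and the lower step of 0.11 did not pass (adjusted p = 0.417).

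PGD, the later dehydrogenase of the oxidative arm, was at 301, 295 and 294.5 CPM with vehicle. With Poria it was at 295, 299 and 299 CPM at 20 µg/mL and at 324, 313 and 321 CPM at 500 µg/mL. The Poria trend was 0.10 ± 0.032 (1.07-fold; edgeR adjusted p = 0.0101), which was lost with no filter on low counts (adjusted p = 0.239) and when only the 9 Poria libraries were fitted (adjusted p = 0.0587). With licorice PGD was at 308, 298.5 and 305 CPM at 20 µg/mL and at 347, 336 and 344 CPM at 500 µg/mL. The licorice trend was 0.17 ± 0.032 (1.13-fold; edgeR adjusted p = 5.39e-05). Between 100 and 500 µg/mL the change was 0.10 with Poria and 0.14 with licorice, which passed, and the lower steps of 0.0026 and 0.034 did not pass. The 95% intervals of the lower and upper step overlapped in both extracts, and the difference between steps was not tested. The call in each upper step was lost with no filter (adjusted p = 0.238 and 0.0881), and that for Poria also with only the groups compared (0.220) and when any of 4 single libraries was left out, with adjusted p up to 0.0891.

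IDH1, the cytosolic isocitrate dehydrogenase, went the other way with Poria. The vehicle libraries held 881.5, 820 and 842 CPM, and those of Poria at 20 µg/mL 832, 882 and 889 CPM. At 100 µg/mL it was at 655, 705.5 and 735 CPM, and at 500 µg/mL at 646, 682 and 677 CPM. Both higher doses lay below every library of the lowest dose and overlapped each other. The trend was -0.38 ± 0.035 (edgeR adjusted p = 8.95e-13). IDH1 fell by 0.31 between 20 and 100 µg/mL (adjusted p = 1.28e-09), and the further difference of -0.064 to 500 µg/mL did not pass (adjusted p = 0.223, 95% interval -0.14 to 0.0074). The lower step remained called without each library in turn, at -0.35 to -0.27, including the library with the highest mitochondrial share. With licorice IDH1 was at 881, 889 and 855.5 CPM at 20 µg/mL and at 827, 811.5 and 833 CPM at 500 µg/mL. These libraries did not overlap, yet the trend of -0.087 did not pass (edgeR adjusted p = 0.0717), while it passed with DESeq2 (0.0310) and with a filter at a mean of 1 CPM (0.0363).

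In the steps, Poria had 3 of 4 genes called from 20 to 100 µg/mL and 3 of 4 from 100 to 500 µg/mL, where 18.8% and 19.1% of all genes were. Licorice had 1 of 4 in the lower step and 3 of 4 in the upper one, where 1.5% and 9.33% of all genes were. In the other 4 extracts 0 of 4 passed in any step by edgeR or by DESeq2. The share of all genes there was 0% and 0.00621% for Atractylodes, 0% and 0.0435% for ginseng, 0.00621% and 0.255% for angelica and 0.0249% and 1.17% for peony, and at an unadjusted p under 0.05 TKT (0.10) and TALDO1 (0.12) passed in the upper angelica step.

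**Figure D1:**
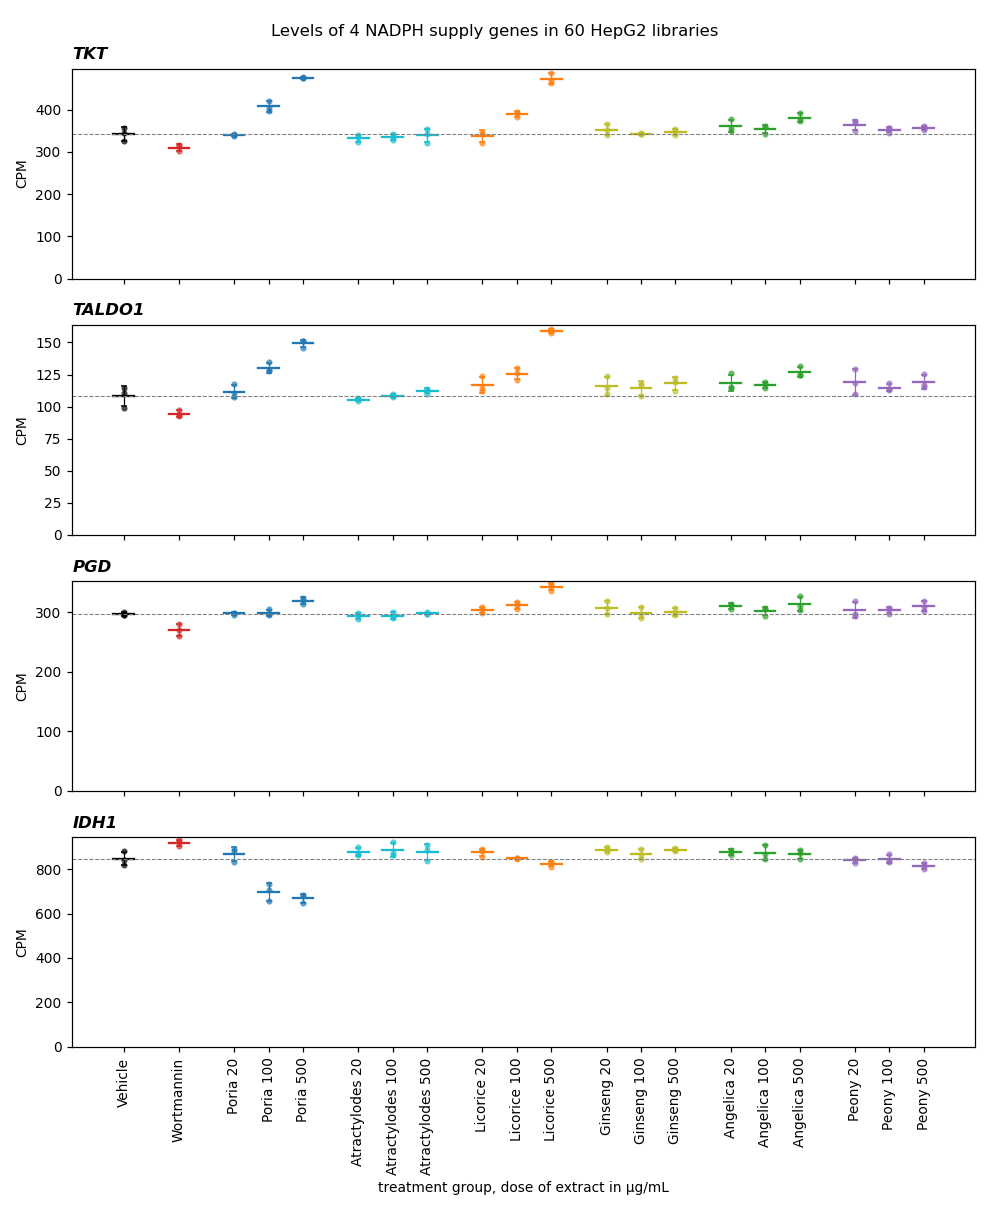
Level of TKT, TALDO1, PGD and IDH1 (CPM, linear axes from 0) in each of the 60 libraries (points), by treatment group and dose in µg/mL, with the mean (bar) and SD (whiskers) of each group of 3 and the vehicle mean as a dashed line. TKT climbed to 474 to 478 CPM with Poria and 463 to 488 CPM with licorice at 500 µg/mL, whereas IDH1 dropped to 646 to 682 CPM with Poria.

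In the trends of Atractylodes, ginseng, angelica and peony, 0 of 4 genes passed in each by edgeR, where 0.0497%, 0.149%, 1.24% and 3.52% of all genes did. At an unadjusted p under 0.05, TKT with angelica was the 1 gene that passed, with a trend of 0.076 (95% interval 0.0032 to 0.15), and DESeq2 called 0. TALDO1 had a trend of 0.098 (-0.0018 to 0.20) with angelica and one of 0.091 (-0.0099 to 0.19) with Atractylodes, whose libraries at 20 and 500 µg/mL did not overlap. For TKT the trends were 0.028 (95% interval -0.045 to 0.10) with Atractylodes, -0.021 (-0.094 to 0.052) with ginseng and -0.027 (-0.10 to 0.046) with peony. Each of these upper limits is below the lower limits of the Poria and licorice trends, 0.41 and 0.42. IDH1 had trends of -0.0013 with Atractylodes and 0.0013 with ginseng, with intervals of -0.072 to 0.070 and -0.070 to 0.072.

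**Figure D2:**
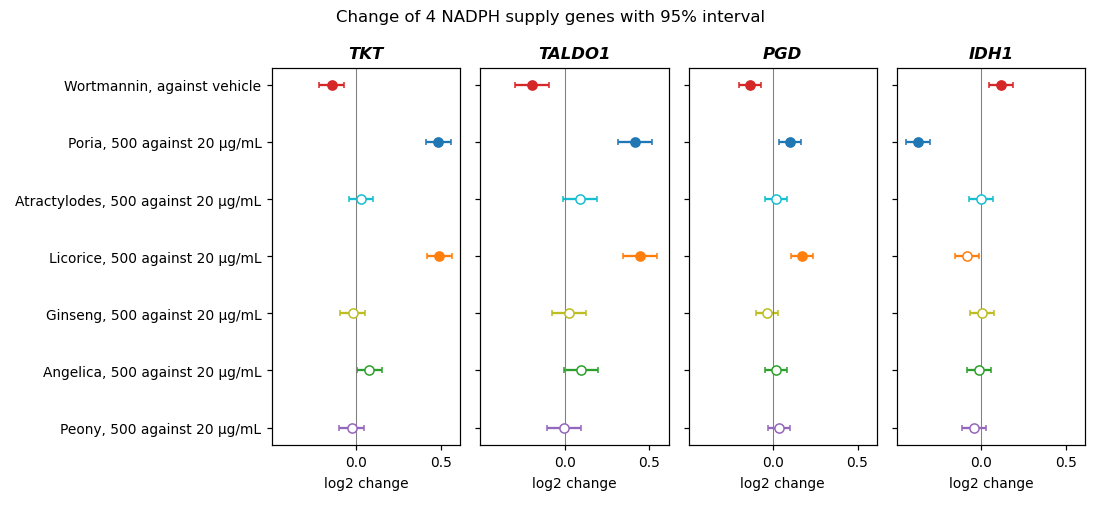
Change of TKT, TALDO1, PGD and IDH1 (log2, horizontal axes) for wortmannin against vehicle and for each extract at 500 against 20 µg/mL, with 95% intervals, filled points passing at an adjusted p of 0.05. TKT sits at 0.48 with Poria and 0.49 with licorice, and IDH1 at -0.38 with Poria.

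The extracts of the same code were compared at 500 µg/mL, and the trends were compared with each other. Poria exceeded Atractylodes in TKT (0.49), TALDO1 (0.41) and PGD (0.10) and was lower in IDH1 (-0.39), so that 4 of 4 passed, where 42.8% of all genes did. The PGD difference was lost with no filter (adjusted p = 0.220). Licorice exceeded ginseng in TKT (0.45), TALDO1 (0.43) and PGD (0.19) and was lower in IDH1 (-0.11), again 4 of 4, where 22.5% of all genes passed. That IDH1 difference (adjusted p = 0.0195) was lost with no filter (0.234), without the first ginseng library (0.0705) or without the second licorice library (0.0639). Between angelica and peony 0 of 4 passed by edgeR, where 6.23% of all genes did, although 2 had an unadjusted p under 0.05 and DESeq2 called 1, IDH1 (0.0480).

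The trends of Poria and licorice differed in IDH1. These extracts stand under separate codes, and a difference between codes cannot be told apart from one between extracts here. The Poria trend minus the licorice trend was -0.29 ± 0.050 for IDH1 (edgeR adjusted p = 8.83e-06), the 1 of 4 genes that passed, where 25.8% of all genes did. For TKT the difference was -0.0058 with a 95% interval of -0.11 to 0.097, for TALDO1 -0.026 with an interval of -0.17 to 0.12, and for PGD -0.072 with an interval of -0.16 to 0.020. These intervals hold 0 but leave room for differences of those sizes. The Poria trend also differed from that of Atractylodes in 3 of 4 genes (TKT, TALDO1 and IDH1), where 29.5% of all genes passed, and the licorice trend from that of ginseng in 3 of 4 (TKT, TALDO1 and PGD), where 8.8% did. Angelica and peony trends differed in 0 of 4, where 0.926% of all genes passed, with 0 at an unadjusted p under 0.05 and 0 by DESeq2.

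Against vehicle, most calls lay at the upper doses of Poria and licorice. Poria at 500 µg/mL gave 4 of 4 (47.6% of all genes), with TKT 0.47, TALDO1 0.47, PGD 0.11 and IDH1 -0.34, and the PGD call was lost with no filter (adjusted p = 0.192). Poria at 100 µg/mL gave 3 of 4 (30.5%), with TKT 0.25, TALDO1 0.27 and IDH1 -0.28. Licorice at 500 µg/mL gave 3 of 4 (32.3%), with TALDO1 0.55, TKT 0.47 and PGD 0.21, and at 100 µg/mL 2 of 4 (16.3%), with TALDO1 0.22 and TKT 0.18. In the comparison of angelica at 500 µg/mL, TALDO1 (0.23) and TKT (0.15) passed, 2 of 4 (18.5%). PGD (0.081) did not pass there by edgeR (adjusted p = 0.0735). It passed with DESeq2 (0.0325) and, by edgeR, without the first angelica library at that dose (0.0374). TALDO1 alone passed with angelica at 20 µg/mL (0.13; 24.1%), peony at 500 µg/mL (0.14; 19.5%) and peony at 20 µg/mL (0.14; 15.5%). Each of these last 3 calls was lost without the third vehicle library, the lowest of its group for TALDO1, with adjusted p of 0.358, 0.350 and 0.336, and also without 1 or more libraries of the extract's own group. In the remaining 10 extract groups 0 of 4 passed by edgeR, where the share of all genes at 500, 100 and 20 µg/mL was 0.882%, 1.31% and 1.03% for Atractylodes and 9.99%, 8.43% and 13.8% for ginseng. It was 3.85% for Poria and 11% for licorice at 20 µg/mL, and 14.4% for angelica and 10% for peony at 100 µg/mL. Of those 40 tests 3 had an unadjusted p under 0.05, all of TALDO1, and DESeq2 called 0.

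With wortmannin the 4 genes differed from vehicle by small amounts, in directions opposite to those with Poria. Wortmannin and vehicle stand under separate codes, so a difference between codes or in DMSO cannot be told apart from the treatment here. With wortmannin TKT was at 316.5, 301 and 313 CPM, TALDO1 at 92.4, 97.5 and 93.5 CPM, PGD at 270.3, 259.7 and 280.1 CPM and IDH1 at 930, 905 and 922 CPM. No wortmannin library overlapped the vehicle libraries in any of the 4. The share of all genes separated in this way was not computed, so the separation cannot be read as particular to these genes. TKT fell by 0.15 (adjusted p = 0.000811), TALDO1 by 0.19 (0.00118) and PGD by 0.14 (0.000447), and IDH1 rose by 0.12 (0.00538), all by edgeR, so that 4 of 4 passed, where 46.3% of all genes did, 22.3% up and 24.1% down. The IDH1 call was lost with no filter (0.135) and without the second vehicle library (0.0528).

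Over the 20 group means, log2 levels were correlated as a description with no test, with points that share codes and vehicle. TKT and TALDO1 had a Pearson r of 0.965, TALDO1 and PGD one of 0.903 and TKT and PGD one of 0.814. For IDH1 it was -0.756 with TKT, -0.664 with TALDO1 and -0.379 with PGD. Among the 9250 genes whose mean reached 10 CPM, the 3 most like TKT included TXN (r = 0.980) and CLDN4 (0.974), and the 3 most like TALDO1 included NQO1 (0.972) and TXN (0.968). PGD was most like SULT1A4 (0.948), AIFM2 (0.927) and CTSC (0.926), and SULT1A4 has a near-identical copy that can share its reads. IDH1 was most like DIO1 (0.939), SDHAP4 (0.938) and HP (0.937).

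Around these enzymes, H6PD, the dehydrogenase of the endoplasmic reticulum, fell with both Poria (-0.20) and licorice (-0.22), by edgeR. Its call was lost without the first library at 20 µg/mL of Poria (adjusted p = 0.0583) or the third at 500 µg/mL, and without the first library at 20 µg/mL of licorice (0.167). PGLS, the lactonase of the oxidative arm, passed in neither trend (-0.052 and -0.030). With wortmannin H6PD (0.59) and PGLS (0.36) rose.

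Of the ribose and other non-oxidative genes, 8 of 10 were tested, as TKTL1 and TKTL2, relatives of transketolase, had at most 1 count in a library. With Poria 1 rose and 3 fell (median -0.050), where 43.5% of all genes passed, among them RBKS, a ribokinase (-0.76), and SHPK, a sedoheptulose kinase (-0.44), while PGM2 (0.13) and PRPS2 (-0.17) lost their calls under 6 and 4 of 16 other settings. With licorice 3 rose and 0 fell (median 0.14), where 21.3% of all genes passed, namely RPIA, the ribose 5-phosphate isomerase (0.31), PRPS1, a ribose-phosphate diphosphokinase (0.18), and DERA (0.18), whose call was lost under 2 of 16 other settings. With wortmannin 1 rose and 5 fell (median -0.23), where 46.3% of all genes passed, with RBKS at 0.76, RPIA at -0.62, PRPS2 at -0.55 and PRPS1 at -0.47.

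A list around other NADPH and NADP reactions, which also holds the NAD-dependent ME2, had 11 tested genes. Of these, 2 rose and 6 fell with Poria (median -0.15), where 43.5% of all genes passed. With licorice 5 rose and 2 fell (median 0.050), where 21.3% of all genes passed. GLUD1, glutamate dehydrogenase, fell with both (-0.48 and -0.49), as did NADK2, the mitochondrial NAD kinase (-0.46 and -0.42). ME2 rose with Poria (0.37) and also rose and passed with licorice, at 0.28 to 0.37 over 16 other settings. NNT, the mitochondrial transhydrogenase, fell with Poria (-0.26). The formyltetrahydrofolate dehydrogenases ALDH1L2 (0.71) and ALDH1L1 (0.39) rose with licorice. ALDH1L1 fell and passed with Poria, at -0.19 to -0.15 over 16 other settings. With wortmannin 4 rose and 2 fell (median 0.11), where 46.3% of all genes passed, led by ALDH1L1 at 1.25, from 32.6, 30.9 and 31.9 CPM to 79.8, 76.0 and 71.9 CPM. MTHFD1 (-0.49) and MTHFD1L (-0.36), enzymes of the folate cycle, fell there, and ALDH1L2 rose (0.64).

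The list around reduction of glutathione, thioredoxin and quinones holds 8 genes. Of these, 6 rose and 0 fell with Poria (median 0.38), where 22.2% of all genes rose. With licorice 6 rose and 0 fell (median 0.63), where 11.1% of all genes rose. NQO1, the quinone reductase, went from 424, 422 and 435 CPM at 20 µg/mL to 893, 919 and 923 CPM at 500 µg/mL of Poria (1.09) and from 459.5, 488 and 474 CPM to 1157, 1124 and 1201 CPM with licorice (1.29). TXNRD1, thioredoxin reductase, rose by 1.07 and 1.05, and GSR, glutathione reductase, by 0.45 and 0.63. TXN, thioredoxin, rose by 0.82 with Poria, and BLVRB, a biliverdin reductase, by 0.63 with licorice. Each also rose and passed with the other extract. TXN was at 0.57 to 0.69 with licorice over 16 other settings. BLVRB was at 0.21 to 0.30 with Poria, where its call was lost under 5 of 16. With wortmannin 3 rose and 3 fell (median -0.094), beside 46.3% of all genes, with BLVRB at 0.46, AKR1B1 at -0.48, NQO1 at -0.37 and GSR at -0.30.

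The list around lipid synthesis holds 10 genes. Of these, 0 rose and 6 fell with Poria (median -0.14), where 21.3% of all genes fell. With licorice 0 rose and 7 fell (median -0.23), where 10.2% of all genes fell. The sterol synthesis enzymes LSS (-0.61 and -0.55) and SQLE (-0.26 and -0.34) fell with both. HSD17B12 (-0.17 with Poria) lost its call under 8 of 16 other settings. With wortmannin 7 rose and 2 fell (median 0.20), beside 46.3% of all genes, with LSS at 0.32, SC5D at 0.27 and TECR at -0.27.

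In the citrate and malate list, 2 of 10 rose and 5 fell with Poria (median -0.10), where 43.5% of all genes passed, and 3 rose and 1 fell with licorice (median 0.026), where 21.3% did. PC, pyruvate carboxylase, rose with Poria (0.42), licorice (0.31) and wortmannin (0.59). The carriers SLC25A1 (-0.35), SLC25A11 (-0.33) and SLC25A10 (-0.31) fell with Poria, while SLC25A10 (0.28) and MDH2 (0.15) rose and ACLY, ATP citrate lyase, fell (-0.22) with licorice. With wortmannin 4 rose and 3 fell (median -0.020), beside 46.3% of all genes, with SLC25A10 at -0.66 and CS at -0.24.

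The list of genes in or next to glycolysis holds 12, among them FBP1 and TIGAR, which are not glycolytic enzymes. Of the 12, 9 rose and 1 fell with Poria (median 0.48), where 43.5% of all genes passed. The rises were led by HK1 (1.60), PFKFB3 (1.35), PFKP (0.89) and ALDOA (0.63). With licorice 0 rose and 1 fell (median -0.050), where 21.3% of all genes passed, and that gene was PFKFB3 (-1.35). The difference between the trends, which crosses codes, passed in 8 of the 12, 7 of them higher with Poria, where 25.8% of all genes passed. Several of these genes were low. HK1 was at 1.02, 1.08 and 1.27 CPM with 20 µg/mL and 3.49, 3.68 and 2.98 CPM with 500 µg/mL of Poria, and PFKP was at 0.73, 0.76 and 1.19 CPM and at 1.59, 1.57 and 1.75 CPM. PFKFB3, which makes the activator of phosphofructokinase, spread widely at 20 µg/mL of Poria, at 3.18, 9.82 and 7.85 CPM, and was at 12.2, 20.8 and 20.7 CPM at 500 µg/mL. With licorice it went from 9.80, 11.1 and 10.995 CPM to 3.62, 3.76 and 5.14 CPM, still above the vehicle libraries at 2.76, 2.50 and 2.32 CPM. With wortmannin 1 rose and 5 fell (median -0.10), beside 46.3% of all genes, with PFKM at 0.69, TIGAR at -0.48, TPI1 at -0.45 and HK2 at -0.27, the last of which was lost under 4 of 12 other settings.

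Of 15 transcription factors known to act on such genes, 7 rose and 6 fell with Poria (median 0.15), where 43.5% of all genes passed, and 3 rose and 2 fell with licorice (median 0.046), where 21.3% did. With Poria the small MAF genes MAFF (1.01) and MAFK (0.70) rose, and THRB, a thyroid hormone receptor (-0.69), and MLXIPL, which encodes the glucose-responsive factor ChREBP (-0.66), fell. With licorice MYC (0.57), MAFG (0.51) and KEAP1, the inhibitor of NRF2 (0.22), rose and THRB fell (-0.31). MYC, MAFG and KEAP1 also rose and passed with Poria. Over 16 other settings they were there at 0.42 to 0.50, 0.37 to 0.47 and 0.31 to 0.36. With wortmannin 7 rose and 2 fell (median 0.031), beside 46.3% of all genes, with MAFF at 0.59, MAF at 0.49, PPARA at 0.48 and MLXIPL at 0.41, and MAF lost its call under 2 of 12 other settings.

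**Figure D3:**
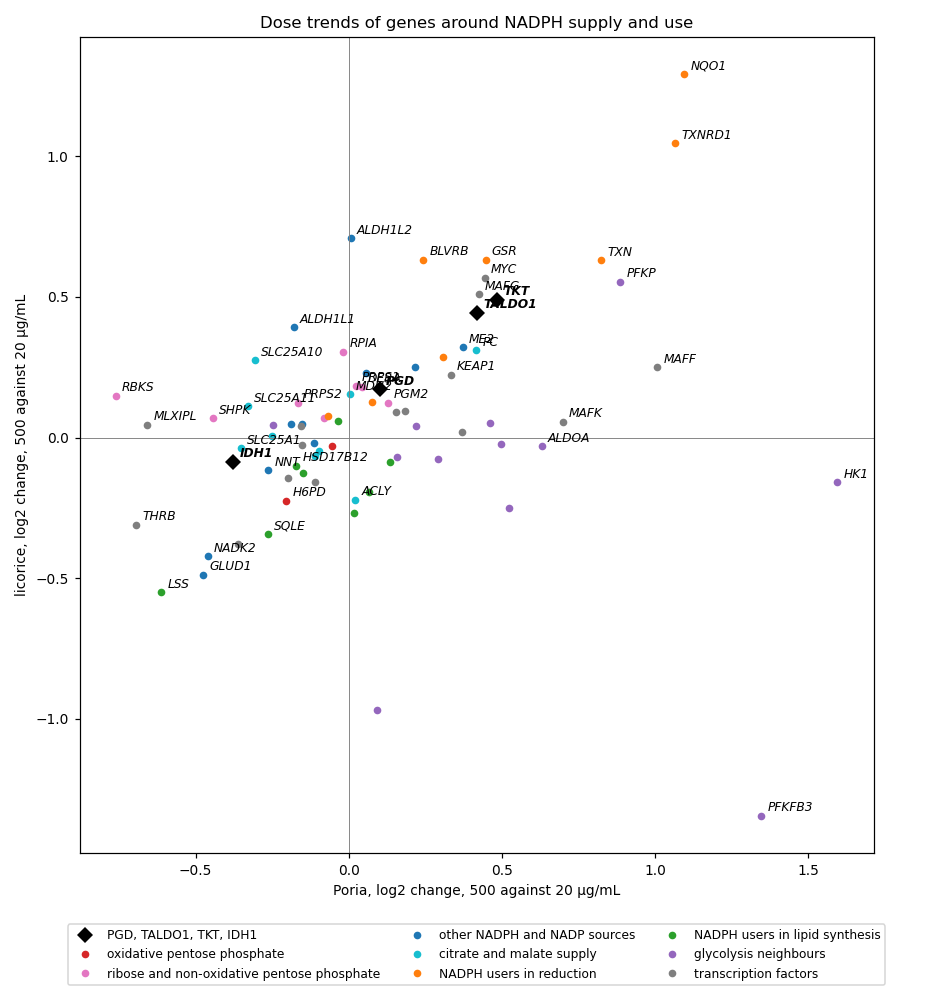
Dose trends (log2, 500 against 20 µg/mL) of the 4 tested enzymes (diamonds) and of genes of the 8 lists (points coloured by list) with Poria (horizontal) and licorice (vertical), with names for genes chosen by the stated rule. TKT and TALDO1 lie at 0.42 to 0.49 in both, and IDH1 lies at -0.38 and -0.087.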

How the data were processed

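Per the labels' protocols, a strand-preserving kit was used and 100 bases were read from both ends of each RNA fragment. Per the submitters' processing notes, the tools were FastQC 0.11.9, Trim Galore 0.6.5, STAR 2.7.3a and RSEM 1.3.3 on hg38. The annotation release and the strand setting are not given in the sources used here. The authors deposited RSEM expected counts per gene, of which 76.1% of values above 0 are whole, and they were rounded here. RSEM divides reads shared between similar sequences. Of 270 columns, 60 were used, and 210 were not used here.

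Sample labels gave the groups. One edgeR model (version 4.0.16, limma 3.58.1, R 4.3.3) held every library, with a mean for each group. TMM factors were 0.924 to 1.03, and the filterByExpr filter (minimum count 10, minimum total 15) left 16093 genes, on 40 residual and 8.18 prior degrees of freedom. Benjamini-Hochberg adjustment was made over all genes within each of 45 comparisons, at 0.05, with a prior count of 0.125. Intervals are 95% from the fit. The fit was tested on simulated data.

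The 5 genes, the 8 pathway lists, the marker lists, the comparisons and the naming rule were chosen with earlier results of these data known. The rule named, of each list, up to 4 genes past the threshold by size in the Poria trend, the licorice trend and wortmannin. It also named the 3 genes most like each enzyme. A gene can therefore pass in a comparison without being named for it. PGLS is also given, and a few genes that the rule names are not reported here, though counts over lists include them. Symbols and coordinates came from GENCODE v29, which matched 57055 of 60675 identifiers, and promoter sequences from RefSeq (GRCh38.p14). Alternatives were DESeq2 size factors, the DESeq2 1.42.0 Wald test, a filter at a mean of 1 CPM, no filter, only the groups compared, regression on log dose, a block for the replicate number, and omission of each library in turn. The alternatives for the dose steps and for genes of the lists were added after the data were seen.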

Additional observations from a re-analysis of the deposited data

Results flagged for a closer look

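In tests of the difference itself, the dose trends of these genes differed between extracts. The joint test and the Poria minus licorice difference set trends from separate codes against each other. There a difference between extracts cannot be told apart from one between codes. In the joint edgeR test of equal trends over the 6 extracts, all 4 genes passed, where 35.1% of all genes did. The adjusted p was 3.18e-15 for TKT, 5.02e-08 for TALDO1, 2.35e-08 for IDH1 and 0.00380 for PGD, and that of PGD was 0.187 with no filter on low counts.

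The Poria trend minus the Atractylodes trend was 0.46 for TKT, 0.33 for TALDO1 and -0.38 for IDH1 on the log2 scale, 3 of 4 genes past the threshold, where 29.5% of all genes were. PGD did not pass, at 0.082 with an adjusted p of 0.186. The licorice trend minus the ginseng trend was 0.51 for TKT, 0.42 for TALDO1 and 0.21 for PGD, again 3 of 4, where 8.8% of all genes passed. IDH1 did not pass there, at -0.088 with an adjusted p of 0.324.

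The Poria trend minus the licorice trend passed for IDH1, at -0.29. Between angelica and peony 0 of 4 trend differences passed by edgeR (0.926% of all genes), with 0 at an unadjusted p under 0.05 and 0 by DESeq2.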

How the results depend on the processing

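Over all tests of TKT, TALDO1, PGD and IDH1, called values kept their call in 829 settings and lost it in 34, and values not called stayed so in 1584 and gained a call in 5. Direction was judged only where a value passed in one of the settings compared, and there it never reversed. The number of the 4 genes called fell from 1 to 0 for angelica at 20 µg/mL, peony at 500 µg/mL and peony at 20 µg/mL against vehicle, each under a mean of 1 CPM, no filter, or only the groups compared, and it was 0 to 1 when single libraries were left out. It fell from 1 to 0 for licorice at 100 against 20 µg/mL with only the groups compared, and rose from 0 to 1 for angelica against peony at 500 µg/mL with the DESeq2 Wald test. Of the list genes called, 44 of 56 with Poria, 31 of 35 with licorice and 43 of 52 with wortmannin kept their call under every setting. Counts over all genes moved by more than 1.5 times in comparisons and steps with few calls and in some with many. The Atractylodes trend went from 8 to 90 with no filter and 14 with DESeq2. The ginseng trend went from 24 to 125 with no filter and 13 with only the groups compared. With only the groups compared, the angelica trend went from 199 to 90 and the peony trend from 566 to 354. The Poria steps went from 3032 to 1359 and from 3081 to 1523 likewise. In the licorice step from 20 to 100 µg/mL the count went from 241 to 44, against vehicle it went from 620 to 140 for Poria and from 1778 to 891 for licorice at 20 µg/mL, from 1357 to 309 for ginseng at 100 µg/mL, from 3881 to 2142 for angelica and from 2502 to 1090 for peony at 20 µg/mL, all with only the groups compared. Atractylodes against vehicle went from 142, 211 and 166 at 500, 100 and 20 µg/mL to 334, 384 and 365 with no filter and 47, 28 and 81 with only the groups compared, and the angelica minus peony trend difference from 149 to 235 with no filter. Same-numbered libraries deviated together, with all 3 correlations over 0.1, in 7 of 40 comparisons (range -0.40 to 0.59). Among the 7 were Poria against Atractylodes (0.24 to 0.49) and licorice against ginseng (0.21 to 0.51) at 500 µg/mL. Both licorice steps were also among them. The numbers were not taken as pairs. The replicate number was also fitted as a block shared by all codes. The Poria trends were then 0.48 for TKT and -0.38 for IDH1, and no call of the 4 genes changed. A block within each code was not fitted, so this does not address pairs within a code. The cause of these changes was not tested.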
